A study of Mus with 8 samples.

Results

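Chemokine ligand genes were followed through the first day of adipogenic induction in control cells and in cells with lowered Prep1. The members were the genes of the count table whose mouse symbol begins with Ccl, Cxcl, Cx3cl or Xcl, followed by a number and at most 1 letter. This rule found 40 of 24013 genes, and it uses no measured value. Of these, 15 reached 1 CPM (counts scaled to a common library total) in at least 1 library. RNA was sequenced from 3T3-L1 cells, a mouse preadipocyte line that turns into fat cells under a hormone cocktail. All cells carried a lentiviral shRNA and had been selected in puromycin. C cells carried a scrambled shRNA and P cells an shRNA against Prep1, a homeodomain transcription factor encoded by Pknox1. P cells were made with a single shRNA sequence, so effects of Prep1 and of this shRNA cannot be told apart. Cells at day −2 were in growth medium with BCS and had not been induced. Cells at day 1 had received insulin at 1 µg/ml, the phosphodiesterase inhibitor IBMX at 0.5 mM and the glucocorticoid dexamethasone at 1 µM in medium with FBS, so the hormones, the serum and the time in culture cannot be told apart. Each of the 4 conditions had 2 biological replicas, which makes 8 libraries.

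Chemokines are small secreted proteins that bind receptors coupled to G proteins and direct the migration of cells, mostly of leukocytes. They are classed by the spacing of their first cysteines into CC (Ccl), CXC (Cxcl), CX3C (Cx3cl) and XC (Xcl) ligands. Fibroblasts and preadipocytes make several of them, among them Ccl2 and the CXC ligands of neutrophils, many of which respond to NF-kB and are repressed by glucocorticoids, and Cxcl12, which is made constitutively by stromal cells. In adipose tissue, chemokines are known for the recruitment of macrophages.

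The libraries held 20428816 to 27614353 counts, at which 3 counts correspond to 0.107 to 0.160 CPM. This floor reflects counting error alone. Values below are CPM on library sizes scaled by edgeR's TMM factors. They are not divided by gene length, so each gene is compared with itself across libraries and not with other genes. Pknox1 had 28.1 and 26.4 CPM in C cells and 17.2 and 18.3 CPM in P cells at day −2, and 38.1 and 36.5 against 23.6 and 23.8 CPM at day 1. Its log2 ratio of P to C was −0.62 (SE 0.14, adjusted p = 0.0558) at day −2 and −0.65 (SE 0.14, adjusted p = 0.0575) at day 1, short of the ratio of 0.5 set for a call. All 8 fibroblast and preadipocyte markers were present, and 6 of 11 leukocyte markers also reached 1 CPM, with up to 386 counts in a library for Cd14 and 144 for Csf1r. Ptprc, Adgre1 and Cd3e had at most 8, 4 and 3 counts. The replicas of P cells at day −2 stood apart from each other. Over 5600 abundant genes the SD of their log2 difference was 0.795, against 0.121 to 0.261 in the other conditions. The chemokine ligands were touched by it: 11 of the 15 expressed members were higher in replica 2, and 9 of them more than 2-fold, counting Cxcl13, which had no count in replica 1. The summed fibroblast markers also reached 49854 CPM in 1 of these libraries and 14665 CPM in the other. The values that change most are therefore also given without either library.

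Of the 40 genes, 25 stayed under 1 CPM in all 8 libraries, and 7 of these had no count in any library: Ccl19, Ccl21a, Ccl21b, Ccl21c, Ccl21d, Ccl28 and Xcl1. The other members under 1 CPM were Ccl1, Ccl3, Ccl4, Ccl6, Ccl12, Ccl20, Ccl22, Ccl24, Ccl26, Ccl27b, Cxcl2, Cxcl3, Cxcl9, Cxcl11, Cxcl14, Cxcl15, Cxcl16 and Cxcl17. Most of these are known from leukocytes, lymphoid tissue or epithelia, while Cxcl2 and Cxcl3 are neutrophil ligands encoded beside Cxcl1. The members nearest to the limit were Ccl8 and Ccl11, with at most 1.27 and 1.69 CPM of the library total, and, below it, Ccl6 and Cxcl16 with at most 0.860 and 0.699 CPM. Pf4 (Cxcl4) and Ppbp (Cxcl7), CXC ligands that the symbol rule does not match, reached 0.145 and 0.975 CPM. The filter on low counts kept 16 members for testing, the 15 expressed ones and Ccl6. Of the 24 that were not tested, 17 had counts, with no more than 17 in any library. Only 10 of the tested members had at least 10 counts in every library. The other 6, Ccl6, Ccl8, Ccl11, Ccl17, Ccl27a and Cxcl13, had fewer in some library.

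Induction lowered a group of CC ligands in C and in P cells, raised Cxcl1 and Cxcl10 in C cells, and raised Ccl5 and Cxcl13 in both, while P cells had more Cxcl12 than C cells at both times. A call needed a Benjamini-Hochberg adjusted p under 0.1 in edgeR's quasi-likelihood test together with a ratio above 2 or below 0.5. In C cells, day 1 against day −2 gave 10 called members of 16, 4 higher (Ccl5, Cxcl1, Cxcl10 and Cxcl13) and 6 lower (Ccl2, Ccl6, Ccl7, Ccl9, Ccl11 and Ccl17), beside 20.4% of all 13339 genes tested (10.7% higher and 9.68% lower). In P cells, 7 were called, 2 higher (Ccl5 and Cxcl13) and 5 lower (Ccl2, Ccl7, Ccl8, Ccl9 and Cxcl5), beside 18.0% of all genes (7.65% higher and 10.4% lower). The median log2 ratio of the 16 members was −0.23 in C cells, beside −0.01 for all genes tested, and −0.12 in P cells, beside 0.02. In uninduced P against C cells only 1 member was called, Cxcl12, which was higher, beside 6.98% of all genes (4.83% higher and 2.15% lower), a share near that of the members. In the edgeR model of all 8 libraries none was called lower there, 2 were lower at an unadjusted p under 0.05, and DESeq2 called 1 lower, Ccl17. At day 1, 4 members were called in P against C cells, Cxcl12 higher and Ccl5, Cx3cl1 and Cxcl10 lower, beside 4.06% of all genes (1.83% higher and 2.23% lower). The median of the members was −0.92 at day 1 and −0.09 at day −2, against 0.01 for all genes at both times. The libraries of the conditions did not overlap for 15 of the 16 members in the induction of C cells, beside 77.7% of all genes, and for 9 in that of P cells, beside 60.6%. In P against C cells they did not overlap for 7 members before induction, beside 53.8%, and for 13 members at day 1, beside 60.5%. The comparisons of 1 cell type over time and those between cell types share libraries, so a gene high in C cells at day 1 enters the induction of C cells and the contrast at day 1 through the same counts. The numbers of calls rest partly on the replicas of P cells at day −2. Without replica 1 or replica 2 of that condition, a single library stood for it. The numbers called then moved in most comparisons, among the members and among all genes. Without replica 2, far more of all genes were called at day −2 and in the induction of P cells. Leaving out a library of C cells lowered the calls of members and of all genes in the induction of C cells. Leaving out a library of P cells at day 1 lowered both in the induction of P cells and at day 1. Single-gene calls given below with a library left out come from such fits. No member was called at day −2 without replica 2 of C cells at that time.

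**Figure D1:**
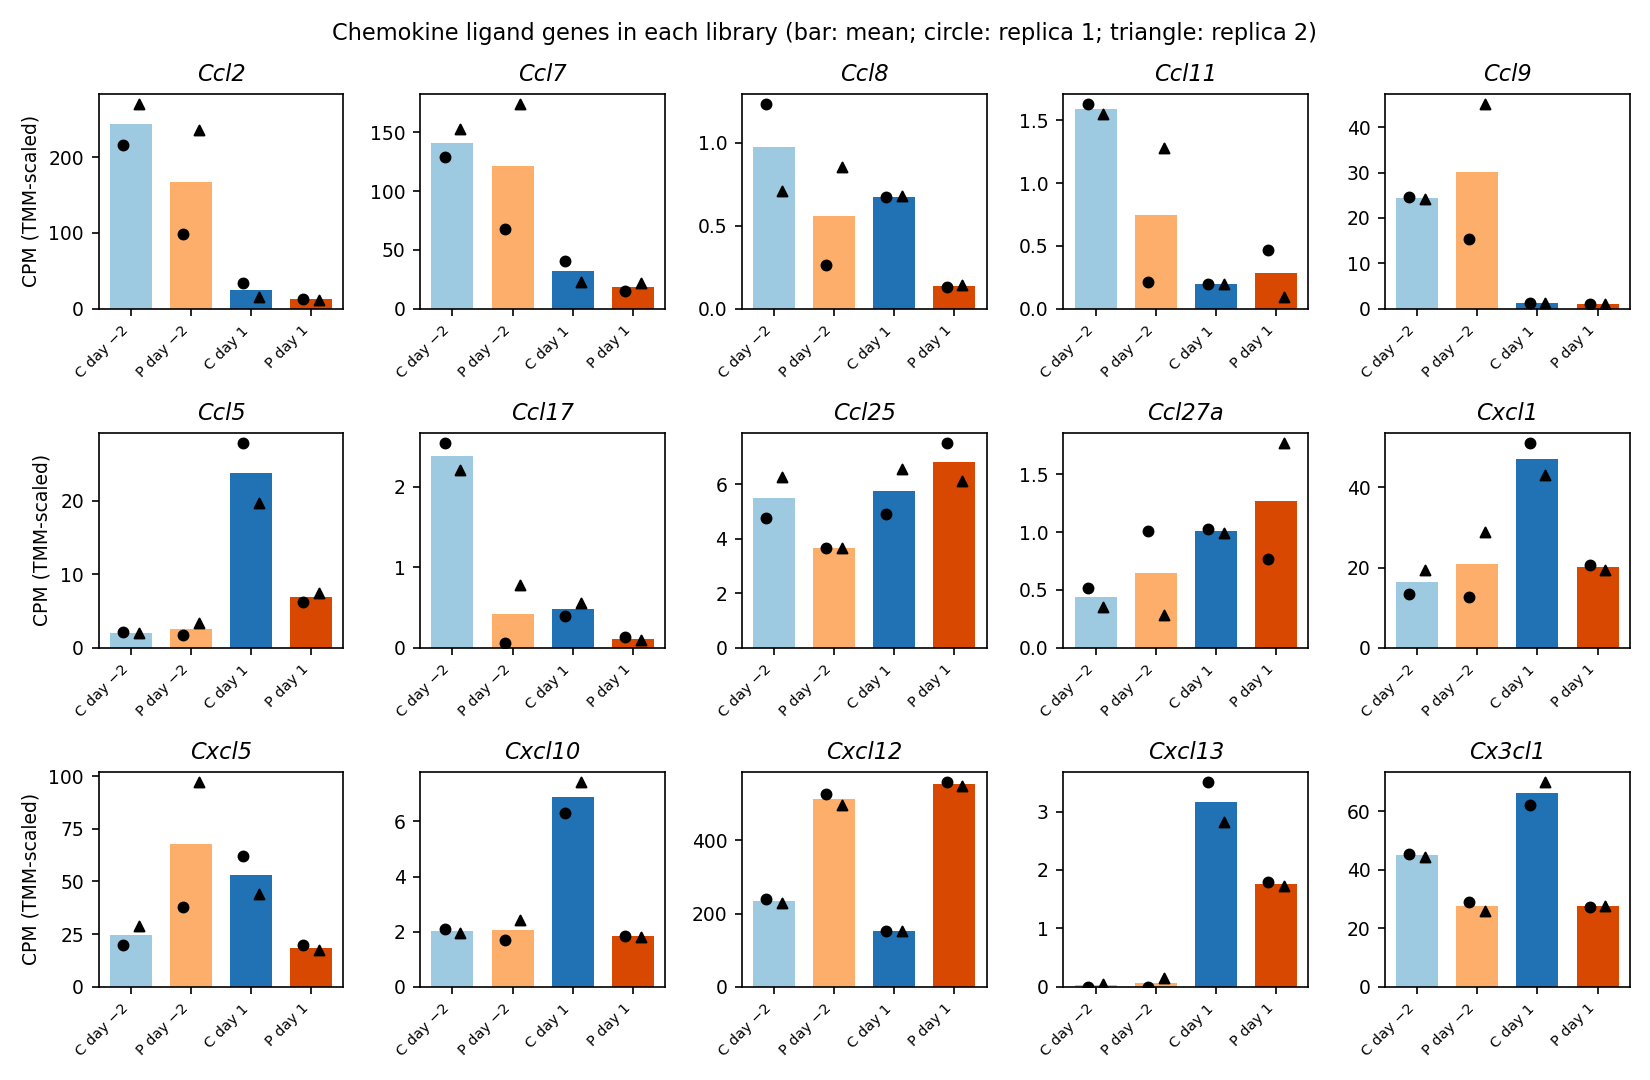
CPM on TMM-scaled library sizes of the 15 chemokine ligand genes with at least 1 CPM in a library, in C and P cells at day −2 and day 1; bars are means, circles replica 1 and triangles replica 2, and each panel has its own axis from 0. Ccl2, Ccl7 and Ccl9 were lower at day 1 in both cell types, Cxcl12 was higher in P cells at both times, and uninduced P cells had distant replicas for Ccl2, Ccl7, Ccl9 and Cxcl5.

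The monocyte chemoattractant and eotaxin group binds mainly Ccr2 and Ccr3, and 4 of its 7 members were expressed. Ccl2, the main attractant of monocytes through Ccr2, had 216 and 270 CPM in C cells at day −2 and 33.8 and 16.0 CPM at day 1. In P cells it had 98.1 and 236 CPM at day −2, and 12.9 and 11.9 CPM at day 1. All libraries of day 1 lay below all libraries of day −2. Ccl2 thus fell by 3.29 on the log2 scale in C cells (SE 0.51, adjusted p = 0.00464) and fell by 3.74 in P cells (SE 0.52, adjusted p = 0.00401). Its ratio of P to C cells was 0.686 at day −2 (adjusted p = 0.463) and 0.499 at day 1 (adjusted p = 0.380), neither of them called with all 8 libraries. Without replica 2 of uninduced P cells the former was called, at a log2 ratio of −1.32 (adjusted p = 0.00941), but not without replica 1 (−0.04), and the latter was called without replica 1 or replica 2 of that condition (adjusted p = 0.0375 and 0.0433). Replica 1 of C cells at day 1 and replica 2 of P cells at day −2 move these values by over 1.5 times: the ratio in C cells was −3.89 without the former and that in P cells −2.97 without the latter.

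Ccl7, a monocyte attractant that the RefSeq order places next to Ccl2, had 129 and 153 CPM in C cells at day −2 and 40.9 and 22.7 CPM at day 1. P cells had 68.0 and 174 CPM at day −2 and 15.2 and 22.3 CPM at day 1. It showed the same order as Ccl2, with all day 1 libraries below all day −2 libraries. Ccl7 fell by 2.15 in C cells (SE 0.49, adjusted p = 0.0200) and fell by 2.69 in P cells (SE 0.50, adjusted p = 0.0119). The call in C cells was lost without replica 2 of C cells at day −2 (adjusted p = 0.111) or at day 1 (adjusted p = 0.140), and that in P cells without replica 1 of P cells at day 1 (adjusted p = 0.109). Without replica 2 of P cells at day −2 the ratio in P cells was −1.85.

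Ccl8 and Ccl11, which lie in the same run of genes with Ccl2, Ccl7, Ccl12 and Ccl1, had few counts. Ccl11 (eotaxin), an attractant of eosinophils, had 1.63 and 1.55 CPM in C cells at day −2 and 0.197 and 0.199 CPM at day 1. The replicas agreed within each time in C cells. Its log2 ratio there was −2.97 (SE 0.94, adjusted p = 0.0590), from 41 and 35 counts against 5 and 5. This call was lost when any of the 4 libraries of C cells was left out (adjusted p = 0.203 to 0.241) and with the replica number as a block in the model (the replicate block, adjusted p = 0.103). In P cells, Ccl11 had 0.213 and 1.28 CPM at day −2 and 0.470 and 0.0933 CPM at day 1, and these overlapped. Ccl8 (Mcp-2) had 0.266 and 0.856 CPM in P cells at day −2 and 0.128 and 0.140 CPM at day 1, the latter at the floor of 3 counts in each library. Its log2 ratio in P cells was −2.07 (SE 0.74, adjusted p = 0.0908), a call that held in 2 of the 7 alternatives that left no library out and tested it, and was lost without each library other than replica 1 of P cells at day −2 (adjusted p = 0.155 to 0.390). The ratio was −2.64 without that replica and −0.96 without replica 2. In C cells Ccl8 had 1.24 and 0.708 CPM at day −2 and 0.671 and 0.676 CPM at day 1. Both P libraries of day 1 thus lay below both C libraries, from 3 and 3 against 17 and 17 counts. The log2 ratio of P to C at day 1 was −2.29 (SE 0.73, adjusted p = 0.172), not a call with all 8 libraries but one with the day 1 conditions alone. Without replica 1 or replica 2 of uninduced P cells this ratio was −2.31 or −2.29.

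Ccl9, Ccl5 and Ccl6 belong to the ligands related to macrophage inflammatory proteins, and moved in different directions. Ccl9, a ligand of Ccr1, had 24.7 and 24.2 CPM in C cells at day −2 and 1.30 and 1.15 CPM at day 1. P cells had 15.3 and 45.2 CPM at day −2 and 0.940 and 0.980 CPM at day 1. The day 1 libraries were close to each other and far below those of day −2 in both cell types. Ccl9 fell by 4.31 in C cells (SE 0.53, adjusted p = 0.00189) and fell by 4.97 in P cells (SE 0.55, adjusted p = 0.00165). Both calls held in every alternative, with ratios in P cells of −5.56 and −3.98 without replica 1 and without replica 2 of day −2. Ccl6 was measured by few reads, with 11 and 18 counts in uninduced C cells and 0 and 1 in induced ones. Its pooled ratio of day 1 to day −2 in C cells was 0.0326, with a 95% counting interval of 0.000798 to 0.197. The log2 ratio fitted by edgeR was −4.63 (SE 1.47, adjusted p = 0.0589), a call. This call was lost without any of the 4 libraries of C cells (adjusted p = 0.163 to 0.259). P cells had 0 and 6 counts of Ccl6 at day −2 and 10 and 2 at day 1.

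Ccl5 (RANTES), an attractant of T cells and monocytes, was adjacent to Ccl9 in the gene order but moved the other way. It had 2.19 and 1.95 CPM in C cells at day −2 and 27.9 and 19.7 CPM at day 1. P cells had 1.70 and 3.32 CPM at day −2, and 6.28 and 7.51 CPM at day 1. The day −2 libraries of the cell types overlapped, and at day 1 both C libraries lay above both P libraries. Ccl5 rose by 3.52 in C cells (SE 0.36, adjusted p = 9.41e-04) and by 1.44 in P cells (SE 0.35, adjusted p = 0.0289), and was lower in P than in C cells at day 1, with a log2 ratio of −1.79 (SE 0.33, adjusted p = 0.0368). The difference between the responses was −2.09 (SE 0.49, adjusted p = 0.123), not a call in the edgeR model of all libraries, but one with DESeq2, with no filter, and without replica 1 (−2.50) or replica 2 (−1.50) of uninduced P cells. The call at day 1 was lost when any library other than the replicas of P cells at day −2 was left out (adjusted p = 0.116 to 0.341). The call in P cells was lost without replica 1 (adjusted p = 0.108) or replica 2 (adjusted p = 0.168) of P cells at day 1, and when the model held the P conditions alone (adjusted p = 0.156).

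Of the 12 lymphoid and epithelial CC ligands, Ccl17, Ccl25 and Ccl27a reached 1 CPM. Ccl17, a ligand of Ccr4, had 2.55 and 2.21 CPM in C cells at day −2 and 0.394 and 0.557 CPM at day 1. P cells had 0.0532 and 0.784 CPM at day −2 and 0.128 and 0.0933 CPM at day 1. The highest values were thus those of uninduced C cells. Its log2 ratio was −2.31 in the induction of C cells (SE 0.81, adjusted p = 0.0800), a call lost with the replicate block (adjusted p = 0.110) and without any library of C cells or of P cells at day 1 (adjusted p = 0.135 to 0.315). Uninduced, its log2 ratio of P to C was −2.40 (SE 0.82, adjusted p = 0.136), which DESeq2 called. It was also called without replica 1 (−1.59) or replica 2 (−5.35) of these P cells. Ccl25, a ligand of Ccr9 known from thymus and gut, varied between 3.67 and 7.52 CPM over all libraries. Its log2 ratio in P cells was 0.89 (adjusted p = 0.0524), short of the ratio of 2. Ccl27a, a skin ligand of Ccr10, lay between 0.285 and 1.77 CPM and was not called in any comparison of the model of all libraries. It was called in the induction of P cells without replica 1 of day −2 (adjusted p = 0.0628), and in that of C cells without replica 2 of P cells at day −2 (adjusted p = 0.0998) or with the C conditions alone. It overlaps Il11ra1, which had 12.8 to 83.0 CPM, and the counting of reads that fall on 2 genes is not given in the sources used here, so its values are uncertain.

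The ELR CXC ligands, named for the residues before their first cysteine, attract neutrophils through Cxcr2. Of 5 such genes, Cxcl1 and Cxcl5 were expressed, while Cxcl2, Cxcl3 and Cxcl15 stayed under 1 CPM. Cxcl1 had 13.3 and 19.3 CPM in C cells at day −2 and 51.2 and 43.2 CPM at day 1. P cells had 12.7 and 29.0 CPM at day −2, and 20.7 and 19.4 CPM at day 1. The 2 libraries of C cells at day 1 were the highest of all. Cxcl1 rose by 1.53 in C cells (SE 0.39, adjusted p = 0.0282), a call lost without replica 1 of day −2 (adjusted p = 0.186) or of day 1 (adjusted p = 0.132) of these cells. Its log2 ratio was −0.06 in the induction of P cells (SE 0.38, adjusted p = 0.923) and −1.24 for P against C cells at day 1 (SE 0.38, adjusted p = 0.159). Without replica 1 or replica 2 of uninduced P cells, the former was −0.54 or 0.67 and the latter −1.26 or −1.24. The latter was called with DESeq2 and with the day 1 conditions alone. For Cxcl1 the difference between the responses was −1.59 (SE 0.54, adjusted p = 0.265). It was a call with DESeq2 but not in the edgeR model of all libraries. Without replica 1 or replica 2 of uninduced P cells this difference was −2.10 or −0.87.

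Cxcl5 had its highest values in uninduced P cells and in induced C cells. C cells had 19.8 and 29.0 CPM at day −2, and 62.1 and 44.2 CPM at day 1. P cells had 37.9 and 97.4 CPM at day −2 and 19.7 and 17.3 CPM at day 1. Within each cell type the times did not overlap, and their order was opposite in C and P cells. Its log2 ratio in C cells was 1.13 (SE 0.44, adjusted p = 0.105), not a call in the edgeR model of all libraries. It was one with DESeq2, with no filter, with the C conditions alone, and without replica 1 (adjusted p = 0.00119) or replica 2 (adjusted p = 0.00152) of uninduced P cells. In P cells Cxcl5 fell by 1.87 (SE 0.45, adjusted p = 0.0287). The call in P cells was lost without replica 1 (adjusted p = 0.149) or replica 2 (adjusted p = 0.183) of P cells at day 1 and with the P conditions alone (adjusted p = 0.134), and without replica 2 of day −2 the ratio was −1.03. The ratio of P to C was 1.48 at day −2 (SE 0.44, adjusted p = 0.106) and −1.52 at day 1 (SE 0.45, adjusted p = 0.139). DESeq2 and the test with no filter called both of these. Without replica 1 or replica 2 of uninduced P cells the first was 2.01 (called) or 0.64 (not called), and the second was called in either case.

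Among the interferon-inducible ligands of Cxcr3, Cxcl10 was expressed, and Cxcl9 and Cxcl11 were not. Cxcl10 had 2.11 and 1.95 CPM in C cells at day −2 and 6.31 and 7.44 CPM at day 1. P cells had 1.70 and 2.42 CPM at day −2 and 1.84 and 1.82 CPM at day 1. Only the induced C cells stood out, and the other 6 libraries lay within 1.70 to 2.42 CPM. Cxcl10 rose by 1.76 in C cells (SE 0.27, adjusted p = 0.00468), and its log2 ratio in P cells was −0.18 (SE 0.28, adjusted p = 0.661). At day 1 it was lower in P than in C cells, with a ratio of −1.91 (SE 0.28, adjusted p = 0.0166). This last call was lost without any of the 4 libraries of day 1 (adjusted p = 0.103 to 0.194). Art3, which overlaps Cxcl10, had at most 0.0933 CPM in a library.

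Cxcl12 (Sdf-1), the stromal ligand of Cxcr4 and of the atypical receptor Ackr3, had close replicas in every condition. Uninduced C cells had 239 and 230.0 CPM, and uninduced P cells 528 and 498 CPM. At day 1, C cells had 151 and 151 CPM and P cells 561 and 550 CPM. The 4 libraries of P cells lay above the 4 libraries of C cells. Cxcl12 was higher in P than in C cells by 1.13 at day −2 (SE 0.13, adjusted p = 0.00530) and by 1.88 at day 1 (SE 0.13, adjusted p = 0.00131). The call at day 1 held in every alternative. The call at day −2 was lost without replica 2 of C cells at that time (adjusted p = 0.108), with the 2 conditions alone (adjusted p = 0.168), and with library totals in place of TMM, where the ratio of 0.94 was short of a 2-fold change at an adjusted p of 0.0121. In the induction of C cells the log2 ratio was −0.63 (SE 0.13, adjusted p = 0.0129), short of a ratio of 0.5, and in P cells it was 0.11 (SE 0.13, adjusted p = 0.546). The difference between these responses was 0.75 (SE 0.18, adjusted p = 0.131), not a call in this model, but one with DESeq2, with library totals, and without replica 1 (0.76) or replica 2 (0.71) of uninduced P cells.

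Cxcl13, a ligand of Cxcr5 that attracts B cells, was near absent before induction, with 0 and 1 counts in C cells and 0 and 4 counts in P cells. At day 1 it had 89 and 71 counts (3.51 and 2.83 CPM) in C cells and 42 and 37 counts (1.79 and 1.73 CPM) in P cells. All libraries of day 1 lay above all of day −2. The pooled ratio of day 1 to day −2 in C cells was 151, with a 95% counting interval of 26.7 to 6008. The log2 ratio fitted there by edgeR was 6.91 (SE 0.96, adjusted p = 0.00304). In P cells the log2 ratio was 4.33 (SE 0.81, adjusted p = 0.0120), and 3.57 and 8.35 without replica 1 and without replica 2 of day −2. In C cells the fitted log2 ratio of 6.91 became 6.01 and 9.25 without replica 1 and without replica 2 of day −2. Both calls held in every alternative that tested the gene.

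Cx3cl1 (fractalkine), a membrane-bound ligand of Cx3cr1 that is released by cleavage, had 45.3 and 44.4 CPM in C cells and 29.1 and 25.9 CPM in P cells at day −2. At day 1 it had 62.1 and 70.0 CPM in C cells and 27.2 and 27.5 CPM in P cells. All P libraries lay below all C libraries, and the P libraries differed little between the times. Its log2 ratio of P to C was −0.71 at day −2 (SE 0.14, adjusted p = 0.0397), short of a ratio of 0.5, and −1.27 at day 1 (SE 0.15, adjusted p = 0.00721). The call at day 1 was lost without replica 1 (adjusted p = 0.142) or replica 2 (adjusted p = 0.136) of P cells at day 1, although the ratio stayed at −1.26 and −1.28. In the induction of C cells the ratio was 0.56 (SE 0.14, adjusted p = 0.0301), short of a 2-fold change. RefSeq places Cx3cl1 between Ccl22, which was too low to test, and Ccl17, which fell in C cells.

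**Figure D2:**
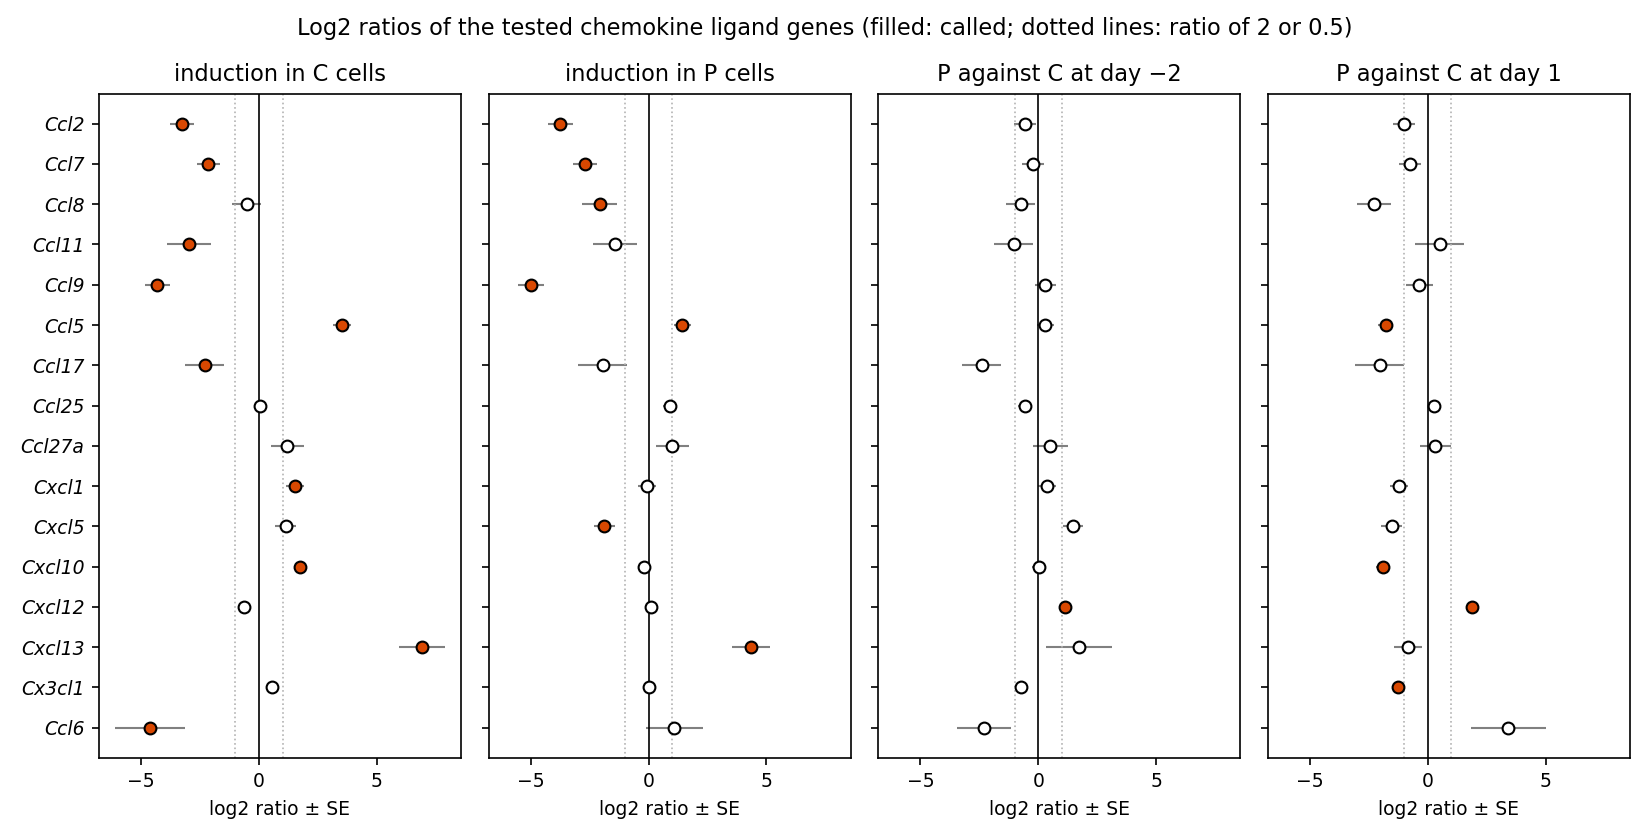
Fitted log2 ratios with their SE for the 16 tested chemokine ligand genes in the 4 comparisons, on a common axis; filled points were called and dotted lines mark ratios of 2 and 0.5. The induction panels hold 10 and 7 called genes, the contrasts of P to C cells 1 and 4, and genes of few counts, such as Ccl6 and Ccl17, have wide errors.

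Summed over the CC ligands, C cells had 422 ± 55.4 CPM at day −2 and 89.9 ± 30.0 CPM at day 1 (SD, n = 2), and P cells 327 ± 196 and 48.0 ± 4.27 CPM. The CXC ligands summed to 278 ± 3.92 and 262 ± 17.7 CPM in C cells, and to 604 ± 32.9 and 598 ± 10.6 CPM in P cells. Cxcl12 made up most of the latter. Of the reads on the 40 genes, it took 34.0% and 29.2% in uninduced C cells, and 66.2% and 44.5% in uninduced P cells. After induction its share was 33.7% and 39.0% in C cells, whereas P cells reached 82.8% and 82.2%. The largest difference between replicas was again in P cells at day −2, where Cxcl12 itself differed 0.943-fold and the other ligands carried the gap. Without Cxcl12, the members summed to 511 ± 65.1 and 267 ± 42.3 CPM in C cells, and to 446 ± 248 and 118 ± 1.52 CPM in P cells. In total, 0.0376% to 0.114% of each library fell on the 40 genes.

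**Figure D3:**
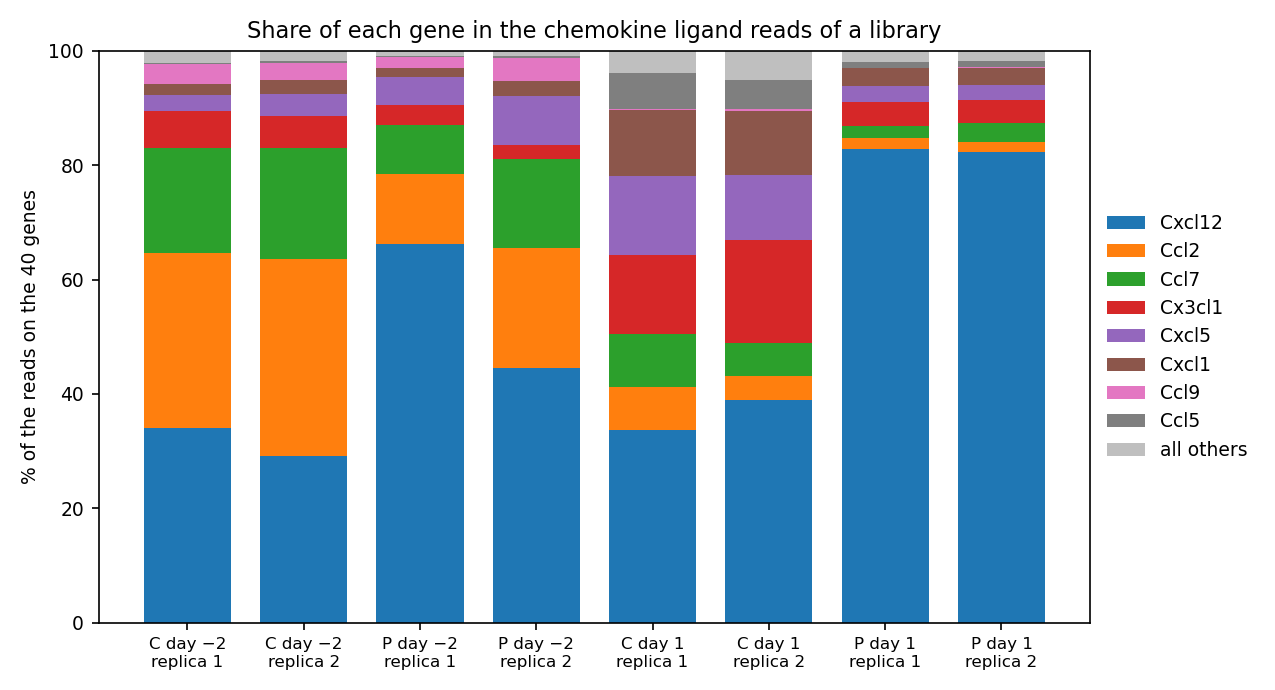
Share in percent of the reads on the 40 chemokine ligand genes that fell on each gene, per library; reads are not divided by gene length. Cxcl12 took 82.8% and 82.2% in P cells at day 1 against 33.7% and 39.0% in C cells, and Ccl2 and Ccl7 shrank from day −2 to day 1 in both cell types.

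Genes of other cell types moved with some of these values. The leukocyte marker list, of which 11 of 12 genes were in the table and 6 reached 1 CPM, summed to 23.5 to 24.8 CPM in C cells and 14.4 to 15.2 CPM in P cells at day −2, and to 13.7 to 15.7 and 9.40 to 10.9 CPM at day 1. Like Ccl2, Ccl7 and Ccl9, this sum was lower at day 1, whereas Cd68, a macrophage marker of the list, went the other way, from 38 and 38 to 95 and 73 counts in C cells and from 19 and 50 to 83 and 113 in P cells. In uninduced C cells, Cd14 (386 and 347 counts) and Csf1r (144 and 112 counts) held most of the leukocyte sum. The lower sum of uninduced P cells was not shared by Lyz2 and Coro1a. Lyz2 had 31 and 126 counts in uninduced P cells against 7 and 2 in uninduced C cells, and Coro1a had 43 and 41 against 22 and 16. Endothelial markers summed to at most 1.84 CPM. Adipocyte markers summed to 79.8 to 80.1 CPM in C cells and 229 to 243 CPM in P cells at day −2, and to 169 to 170 and 565 to 609 CPM at day 1. This sum was higher in P cells, as was Cxcl12, but not every gene of the list was. Pparg had 228 and 594 counts in P cells and 483 and 441 in C cells at day −2. From day −2 to day 1 the sum rose in C cells, whereas Cxcl12 was lower there. Fabp4 also went the other way in C cells, from 52 and 53 to 20 and 35 counts. The part of these marker genes in the results was not tested. In these bulk cultures, fewer cells that express a ligand and less RNA per cell cannot be told apart.

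The interaction, the response of P cells minus that of C cells, was called for Cxcl5 and Cxcl10, both negative, beside 2.37% of all genes (0.435% positive and 1.93% negative). It was −3.00 for Cxcl5 (SE 0.63, adjusted p = 0.0939) and −1.94 for Cxcl10 (SE 0.39, adjusted p = 0.0836). In the edgeR model of all 8 libraries with TMM, no member was called in the positive direction. At an unadjusted p under 0.05, 2 were positive and 5 negative. DESeq2 called 1 positive, Cxcl12, and 4 negative, Ccl5, Cxcl1, Cxcl5 and Cxcl10. With library totals the only call was Cxcl12, positive. The median difference of the 16 members was −0.55, against −0.01 for all genes. With the replicate block neither was called (adjusted p = 0.184 for Cxcl5 and 0.191 for Cxcl10). Both calls were also lost without any one of the 6 libraries other than P cells at day −2, with an adjusted p of 0.283 to 0.439 for Cxcl5 and of 0.259 to 0.449 for Cxcl10. Without replica 1 or replica 2 of P cells at day −2, the difference of Cxcl5 was −3.56 or −2.16. That of Cxcl10 was −2.20 or −1.65. Without replica 2 most of all genes were called in the interaction, so calls in that fit do not single out members.

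**Figure D4:**
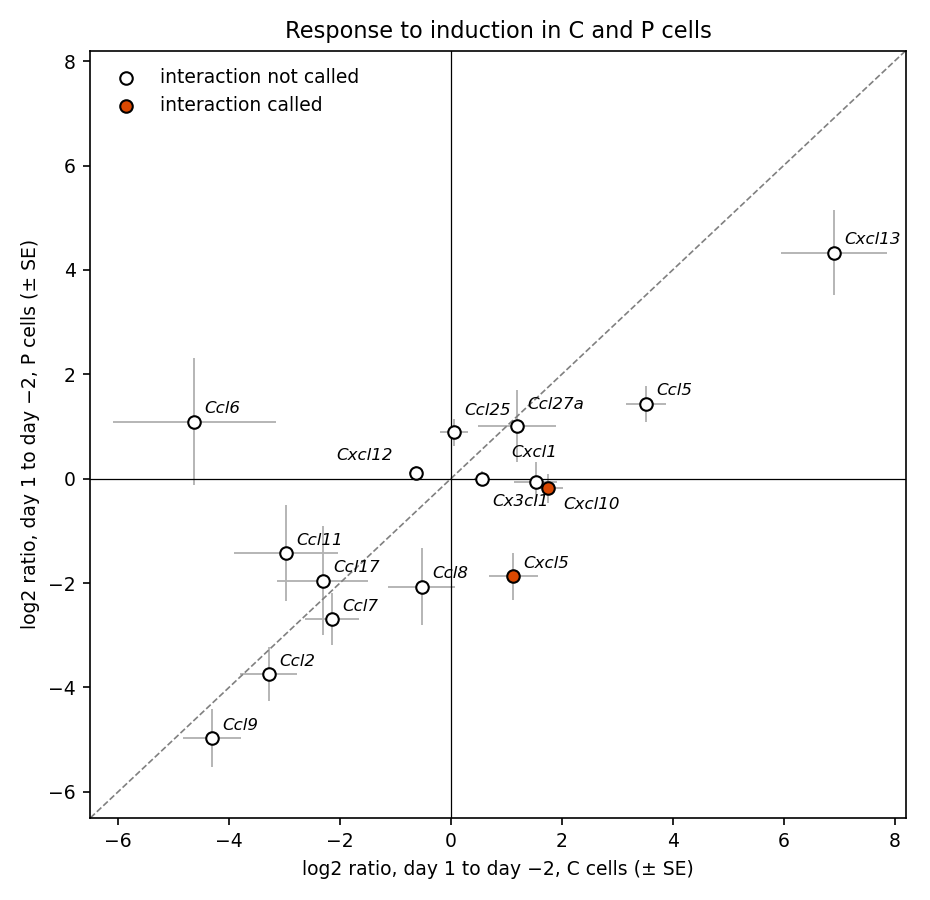
Fitted log2 ratio of day 1 to day −2 in C cells (horizontal) and in P cells (vertical) for the 16 tested chemokine ligand genes, with SE; the dashed line marks equal responses. Ccl2, Ccl7 and Ccl9 lie near the line, and Cxcl5 and Cxcl10, called in the interaction (filled), lie below it at −1.87 and −0.18 in P cells against 1.13 and 1.76 in C cells.

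The receptors of these ligands were scarce. Of 19 chemokine receptor genes, 3 reached 1 CPM in a library (Ccr7, Cxcr2 and Cx3cr1), and Cxcr4, the signalling receptor of Cxcl12, had at most 1 count in a library. Among the 5 receptors tested, 1 was called, Ccr7 (named after its values were seen), higher in the induction of P cells, with 0 counts in both libraries of day −2 and 1 and 15 at day 1 (adjusted p = 0.0910). This call was lost with the replicate block (adjusted p = 0.112), without replica 2 of P cells at day 1 (adjusted p = 0.381) and without any library of C cells (adjusted p = 0.145 to 0.156). In C cells Ccr7 had more counts, 4 and 3 at day −2 and 16 and 27 at day 1. Its log2 ratio there was 2.50 (SE 1.11, adjusted p = 0.152), not a call with edgeR, whereas DESeq2 called 1 receptor in this induction. Of 5 atypical receptors, which bind chemokines without G protein signalling, 1 was tested, Ackr3, a scavenger of Cxcl12 that was named after its values were seen. Ackr3 had 3.62 and 3.01 CPM in C cells and 1.92 and 1.82 CPM in P cells at day −2, and 23.0 and 24.4 against 9.91 and 7.65 CPM at day 1. It rose by 2.84 in C cells (adjusted p = 3.04e-04) and by 2.23 in P cells (adjusted p = 0.00113), and its ratio of P to C at day 1 was −1.43 (adjusted p = 0.0165), opposite in sign to that of Cxcl12. The call at day 1 was lost without any of the 4 libraries of that day (adjusted p = 0.112 to 0.201). Of the proteases Adam10, Adam17 and Dpp4, Adam10, which cleaves Cx3cl1 from the membrane, was called in the induction of C cells, with a log2 ratio of 1.01 (adjusted p = 0.0167) that lies at the limit for a call, and lost the call without either library of uninduced C cells (0.98 to 1.05 over the left-out libraries) or with library totals.

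The regulators known to act on chemokine genes are given by lists, to be read beside the shares of all genes called, 10.7% higher and 9.68% lower in the induction of C cells, 7.65% and 10.4% in that of P cells, 4.83% and 2.15% for P against C at day −2, and 1.93% negative in the interaction. Of 21 tested NF-kB genes, 3 were higher in the induction of C cells: Bcl3 (2.04) and Nfkbiz (1.97), nuclear cofactors, and Nfkbia (1.09), the inhibitor IkB-alpha, all as log2 ratios. In P cells 2 were lower, Nfkb1 (−1.23) and Nfkbie (−1.04), calls lost without replica 1 of P cells at day −2 or either of day 1 (−1.60 to −0.73 and −1.23 to −0.83 over the left-out libraries). At day −2 Nfkbiz was higher in P than in C cells (1.04), a call lost without either library of uninduced C cells or replica 1 of uninduced P cells (0.80 to 1.25). With edgeR this list had 0 calls in P against C cells at day 1 (6 at an unadjusted p under 0.05, 0 with DESeq2) and 0 in the interaction (4 at an unadjusted p under 0.05, 2 with DESeq2). Of 7 tested genes of the glucocorticoid response, the receptor gene was called in neither induction. The other 6 were higher in the induction of C cells and in that of P cells. They included Tsc22d3 (4.05 in C and 3.24 in P cells), which encodes the protein Gilz, and Zfp36 (3.35 and 2.01), which destabilises cytokine mRNAs. At day −2, before the hormones, 2 genes of this list were already called higher in P than in C cells, among them Zfp36 (1.54). That call of Zfp36 was lost without either library of uninduced C cells (1.24 to 1.79 over the left-out libraries) and with the 2 conditions alone. Of 10 tested cytokine and adhesion genes, 2 were higher and 4 lower in C cells, and 1 higher and 4 lower in P cells. Like Ccl2, the macrophage growth factor gene Csf1 fell by 1.65 in C cells and fell by 2.75 in P cells. Unlike Ccl2, it was called higher in P than in C cells at day −2 (1.19, adjusted p = 0.0436), and its ratio at day 1 was 0.09. The call of Csf1 at day −2 was lost with library totals and with the 2 conditions alone (0.77 to 1.51 over the left-out libraries). Ptgs2, the inducible cyclooxygenase, fell by 1.73 in C cells and fell by 2.01 in P cells. Of 11 tested interferon signal genes, 4, among them Irf7, Irf9 and Stat2, were higher in the induction of C cells and 0 were called in P cells with edgeR (3 at an unadjusted p under 0.05, 0 with DESeq2), where the log2 ratio of Irf7 was 0.09 (SE 0.16) against 4.42 (SE 0.19) in C cells. Irf7, Irf9 and Stat2 were also higher in P than in C cells at day −2, with log2 ratios of 3.35, 1.56 and 1.69, and were called lower in the interaction, at −4.32, −2.09 and −2.77. The interaction of Irf9 was not called without replica 1 of C cells at day −2 or either replica of P cells at day 1 (−2.21 to −1.97 over the left-out libraries), nor that of Stat2 without replica 1 of either of these conditions (−2.97 to −2.58). These 3 genes and Cxcl10 had in common a rise in C cells and a lower response in P cells, but at day −2 the ratio of P to C was 0.03 for Cxcl10 (SE 0.28, adjusted p = 0.947).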

How the data were processed

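Total RNA of 8 libraries, 2 biological replicas of C and of P cells at day −2 and at day 1, was sequenced on the Ion Torrent system. The authors removed artifacts with the FASTX-Toolkit, aligned the reads to mm9 with TopHat 2.0.9 and counted them per gene against the UCSC refGene annotation. What was deposited are raw counts per gene, as whole numbers and not normalized. The use of the strand and the treatment of reads on several genes or places are not given in the sources used here. Symbols came from RefSeq (GRCm38.p6), used for names and gene order only, and 84 of 24013 genes had none. No sequences or mm9 coordinates were used.

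Tests were run on the counts with edgeR 4.0.16 (limma 3.58.1, R 4.3.3). After filterByExpr on the 4 conditions, 13339 genes were scaled by TMM and fitted by quasi-likelihood, each condition with its own mean. The SE of a log2 ratio was derived from the test, as its absolute value divided by the square root of the F statistic. CPM are on TMM-scaled sizes, except the limit of 1 CPM for expression, which is on library totals. Tests are two-sided, adjusted by Benjamini-Hochberg over all genes tested, and called at an adjusted p under 0.1 and a ratio over 2 or under 0.5, or for the interaction at an adjusted p under 0.1 alone. Ratios of pooled counts of 1 to 3 have exact binomial intervals at the 95% level, which cover counting error only. The method was run on simulated counts for the induction of C cells only, with the same spread of a gene in all libraries. That run does not cover the other comparisons or the distant replicas of P cells at day −2.

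Every member is accounted for: called members are given in every library, other expressed members in short, and the rest as counts. From pathway lists, called genes with a mean of at least 10 CPM were named, at most 4 per list, and a few genes of these lists are not reported here. The members and the lists were chosen with earlier results of these data known.

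Alternatives were DESeq2 1.42.0, scaling by its size factors or by library totals, testing of all genes or of those with at least 10 counts in every library, fits of only the 2 conditions compared, a replicate block, an adjusted p under 0.05, calls regardless of the ratio, and leaving out libraries in turn. After the data were seen, 2 blocks with crossed numbers were added. The labels number the replicas but do not tie numbers across conditions, and the deviations of same-numbered libraries correlated at 0.209 in 1 pair of conditions and between −0.355 and −0.0523 in the other 5 (over abundant genes, 0.438 and 0.137 in 2 pairs and −0.752 to −0.192 in 4), so the numbers were not taken to pair the samples.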

Additional observations from a re-analysis of the deposited data

Results flagged for a closer look

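Cxcl5 and Cxcl10 are given here because P cells responded to induction unlike C cells in a test of that difference itself, edgeR's interaction term. The difference of Cxcl5 was −3.00 on the log2 scale (SE 0.63, adjusted p = 0.0939), with both C libraries higher and both P libraries lower at day 1 than at day −2. The difference of Cxcl10 was −1.94 (SE 0.39, adjusted p = 0.0836), with values of 6.31 and 7.44 CPM in C cells at day 1 and of 1.70 to 2.42 CPM in all other libraries. Both calls were lost with the replicate block (adjusted p = 0.184 and 0.191), with library totals (adjusted p = 0.184 and 0.180), at an adjusted p under 0.05 and without any one of the 6 libraries other than P cells at day −2. No condition has enough libraries to look for a single outlying replica by a test.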

How the results depend on the processing

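Of 24 calls of members, 16 held in the 9 alternatives that left no library out and kept the thresholds, 15 of these also at an adjusted p under 0.05 (not Ccl6 in C cells), and 9 held in every alternative that tested them: Ccl2 and Ccl9 in both inductions, Cxcl13 in both, Ccl5 and Cxcl10 in C cells, and Cxcl12 at day 1. The cause of the lost calls was not tested. With at least 10 counts in every library, which leaves 10 members, 6 were called in the induction of C cells and 1 in the interaction. With only the 2 conditions compared, 4 were called in the induction of P cells, 0 at day −2 and 7 at day 1. Library totals, which move the median of all genes by up to 0.29, gave 0 at day −2 and 1 in the interaction, and lowered the share of higher calls at day −2 from 69.2% to 55.4% and raised it in the induction of P cells from 42.4% to 54.5%. DESeq2 called 3 at day −2 and 5 in the interaction. No filter gave 2 at day −2, and no ratio threshold also 2. At an adjusted p under 0.05 the interaction had 0 calls. When each library was left out, the calls ranged from 6 to 13 in the induction of C cells, 3 to 10 in that of P cells, 0 to 7 at day −2, 1 to 9 at day 1 and 0 to 10 in the interaction.

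The replicate block gave 8 and 6 calls in the inductions, 1 at day −2, 4 at day 1 and 0 in the interaction. Blocks with the numbers of P cells at day 1, or of all day 1 libraries, crossed gave 0 or 1 in the interaction, and the latter gave 2 at day −2. Among the member values called in at least 1 setting, signs turned in 7 when 1 library was left out. None of the 7 was called with all libraries. Over the left-out libraries, Ccl11 ranged from −2.97 to 0.42 and Ccl17 from −2.77 to 1.00 in the induction of P cells. Ccl6 ranged from −0.33 to 5.64 there, and Ccl7 from −1.06 to 0.32 at day −2. The interaction ranged from −0.0082 to 3.39 for Ccl11, −0.48 to 3.31 for Ccl17 and −1.27 to 0.33 for Ccl9. A replica of P cells, mostly of day −2, was the one left out in each of the 7. Values never called turned as well without replica 2 of uninduced P cells. Examples were Cxcl13 in P against C cells at day −2 (1.73 to −2.29) and Cxcl1 in the induction of P cells (−0.06 to 0.67). Genes under 0.107 to 0.160 CPM could not be told from absence at this depth.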
